A study of Homo sapiens with 12 samples.

Results

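Germline genes are expressed in developing and adult germ cells, and the 38 genes described here cover the piRNA pathway, the RNA-binding proteins of germ cells and the machinery of meiosis. They were chosen by name from knowledge of these pathways, with earlier results of these data known, so shares set beside all genes are descriptive. The genes were grouped by role and looked up on the array by gene identifier. Of the 38 genes, 37 had a probe set that the annotation ties to 1 gene, out of 18404 genes measured in the same way. TDRD7 had none and was not analysed here.

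The samples were 2102Ep and NTera-2, established lines of human embryonal carcinoma, the undifferentiated stem cells of germ cell tumours. 2102Ep is described as nullipotent, since it resists most inducers of differentiation, while NTera-2 is pluripotent. Each line carried either an siRNA against SOX2, a transcription factor of the undifferentiated state, or Silencer Select Negative Control #1, a non-targeting siRNA, so every array came from transfected cells. This gave 4 groups of 3 biological replicates, hybridised to 12 Affymetrix Human Gene 1.0 ST arrays: 2102Ep control, 2102Ep siSOX2, NTera-2 control and NTera-2 siSOX2. Cells were plated 24 h ahead, exposed to the siRNA for 6 h and cultured for another 72 h. The passage range was 35 to 50 for 2102Ep and 40 to 50 for NTera-2. Lipofectamine 2000 was used in 2102Ep and Lipofectamine RNAiMAX in NTera-2, and the siRNA amount also differed, so line, reagent and amount cannot be told apart. The arrays hold neither another siRNA against SOX2 nor a rescue.

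PIWI proteins are Argonaute relatives that bind piRNAs, a class of small RNAs known for silencing transposons in germ cells. Tudor domain proteins gather PIWI proteins and other factors into cytoplasmic granules where piRNAs are made and amplified. In meiosis, HORMA domain proteins and cohesins form the chromosome axis, the synaptonemal complex holds homologous chromosomes together, and SPO11 and DMC1 begin and repair the DNA breaks from which crossovers arise. Many of these genes are silent in somatic cells, where DNA methylation and a Polycomb complex holding E2F6 and the MAX partner MGA are known to repress them, and some reappear in tumours as cancer-testis antigens.

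Promoters are shown for 6 of the 8 genes called between the control cells of the lines (below), because that complex is known for its E-box (CACGTG) and E2F (TCCCGC) motifs. HORMAD1 and PIWIL2 are the others. The RefSeq promoters of build GRCh38.p14 run from 250 bases before to 50 bases after a gene's start. They were matched by symbol for 32 of the 38 genes, TDRD7 included. For HORMAD1, MEIOB, PIWIL2, PIWIL4, TEX14 and TEX15 no promoter was matched, so theirs were not searched for motifs. The lines below give GTSF1 (chr12:54473553-54473852, minus strand), TDRD12 (chr19:32719517-32719816, plus strand), DMC1 (chr22:38570134-38570433, minus strand), DND1 (chr5:140673527-140673826, minus strand), TDRD1 (chr10:114179037-114179336, plus strand) and MAEL (chr1:166975332-166975631, plus strand). Each is printed in the direction of transcription with motif matches of either strand in capitals. The second match of TDRD12 is an E2F motif on the opposite strand, the match of MAEL is an E2F motif, and all other capitals are E-boxes.
GTSF1: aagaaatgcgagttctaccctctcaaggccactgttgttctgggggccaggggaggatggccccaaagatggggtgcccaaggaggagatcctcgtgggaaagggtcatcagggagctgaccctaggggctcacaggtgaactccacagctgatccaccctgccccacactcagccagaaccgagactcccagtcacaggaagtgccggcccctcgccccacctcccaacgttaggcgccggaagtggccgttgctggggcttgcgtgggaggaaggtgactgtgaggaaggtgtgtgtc
TDRD12: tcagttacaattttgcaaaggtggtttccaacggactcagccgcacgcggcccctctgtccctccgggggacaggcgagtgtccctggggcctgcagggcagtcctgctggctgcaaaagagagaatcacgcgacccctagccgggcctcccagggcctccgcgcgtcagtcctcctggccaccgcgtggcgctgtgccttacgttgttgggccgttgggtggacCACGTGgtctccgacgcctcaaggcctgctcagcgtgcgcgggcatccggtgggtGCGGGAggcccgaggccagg
DMC1: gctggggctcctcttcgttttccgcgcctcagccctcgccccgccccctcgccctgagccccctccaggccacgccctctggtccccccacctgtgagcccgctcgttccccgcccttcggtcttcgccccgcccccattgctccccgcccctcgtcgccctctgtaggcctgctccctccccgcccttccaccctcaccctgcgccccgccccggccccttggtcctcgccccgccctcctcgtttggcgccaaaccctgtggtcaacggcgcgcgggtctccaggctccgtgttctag
DND1: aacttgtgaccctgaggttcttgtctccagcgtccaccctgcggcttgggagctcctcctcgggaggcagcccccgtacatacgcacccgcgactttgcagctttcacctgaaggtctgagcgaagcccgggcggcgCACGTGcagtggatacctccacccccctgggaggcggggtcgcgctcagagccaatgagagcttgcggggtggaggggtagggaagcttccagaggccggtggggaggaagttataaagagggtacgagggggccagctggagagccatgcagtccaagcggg
TDRD1: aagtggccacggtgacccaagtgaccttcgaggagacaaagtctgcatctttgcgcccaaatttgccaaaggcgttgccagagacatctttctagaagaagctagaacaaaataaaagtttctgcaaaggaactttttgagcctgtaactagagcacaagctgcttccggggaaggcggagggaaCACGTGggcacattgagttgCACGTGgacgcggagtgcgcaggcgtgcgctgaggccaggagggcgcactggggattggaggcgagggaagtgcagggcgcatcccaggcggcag
MAEL: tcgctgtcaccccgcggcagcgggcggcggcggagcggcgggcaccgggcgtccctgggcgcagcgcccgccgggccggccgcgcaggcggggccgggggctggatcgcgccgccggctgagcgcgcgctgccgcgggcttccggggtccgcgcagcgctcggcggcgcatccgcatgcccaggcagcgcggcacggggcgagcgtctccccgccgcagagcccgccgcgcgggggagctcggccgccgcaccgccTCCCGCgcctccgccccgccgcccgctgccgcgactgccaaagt

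Motif content varied among these promoters. TDRD12, higher in NTera-2, held 1 E-box and 1 E2F motif among 26 CpG dinucleotides. GTSF1, higher in 2102Ep, held neither motif and 10 CpG dinucleotides, while DND1 and TDRD1 held 1 and 2 E-boxes. DMC1, higher in NTera-2, held neither motif and 29 CpG dinucleotides, and MAEL, higher in 2102Ep, held 1 E2F motif and 60. Over all 32 promoters, the E-box was in 5 (15.6%) against 8.88% of the promoters of 14230 genes on the array, the E2F motif in 20 (62.5%) against 35.9%, and the SOX core ATTGTT in 1 (3.12%; SYCP1) against 6.8%. Both strands were searched, and none of the motifs contains another. The median number of CpG dinucleotides was 26 against 23. A match is a run of letters and not evidence of binding.

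SOX2 itself was the first value examined. Its log2 signal, the deposited unit in which a step of 1 is a 2-fold difference, was 12.28, 12.21 and 12.20 in 2102Ep control cells and 9.17, 9.30 and 8.80 after siSOX2. In NTera-2 it was 12.51, 12.52 and 12.63 in control cells and 11.92, 11.95 and 11.86 after siSOX2. In each line the siSOX2 arrays were lower than every control array, with 11.4% of the control signal left in 2102Ep and 64.0% in NTera-2. The arrays measure RNA and not SOX2 protein. Of the 14 measured markers of embryonal carcinoma, 14 stood above the median of all genes in 2102Ep and 13 in NTera-2, where ZFP42 was below it at 5.66 in control cells. POU5F1 and NANOG had no probe set of 1 gene. Of 13 seminoma and primordial germ cell markers, 8 stood above the median of all genes in 2102Ep control cells and 6 in NTera-2 control cells. DDX4, a defining helicase of later germ cells, was below it and lay between 5.16 and 5.79 over the 12 arrays.

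Most germline genes gave dim signals in both lines. Of the 37, 29 had a mean below the median of all genes (8.03) and 24 were in the lower quartile (below 6.73). The array gives no detection call, and dim signals are compressed, so fold changes of these genes tend to be understated. TDRKH, DND1, NANOS1, DAZAP1 and REC8 stood above the all-gene median in every group and NANOS3 in all but NTera-2 siSOX2. GTSF1 and HORMAD1 did so only in the 2102Ep groups, and PIWIL2, TDRD12 and TEX15 only in the NTera-2 groups. Levels of different genes are not compared, since each probe set has its own scale.

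**Figure D1:**
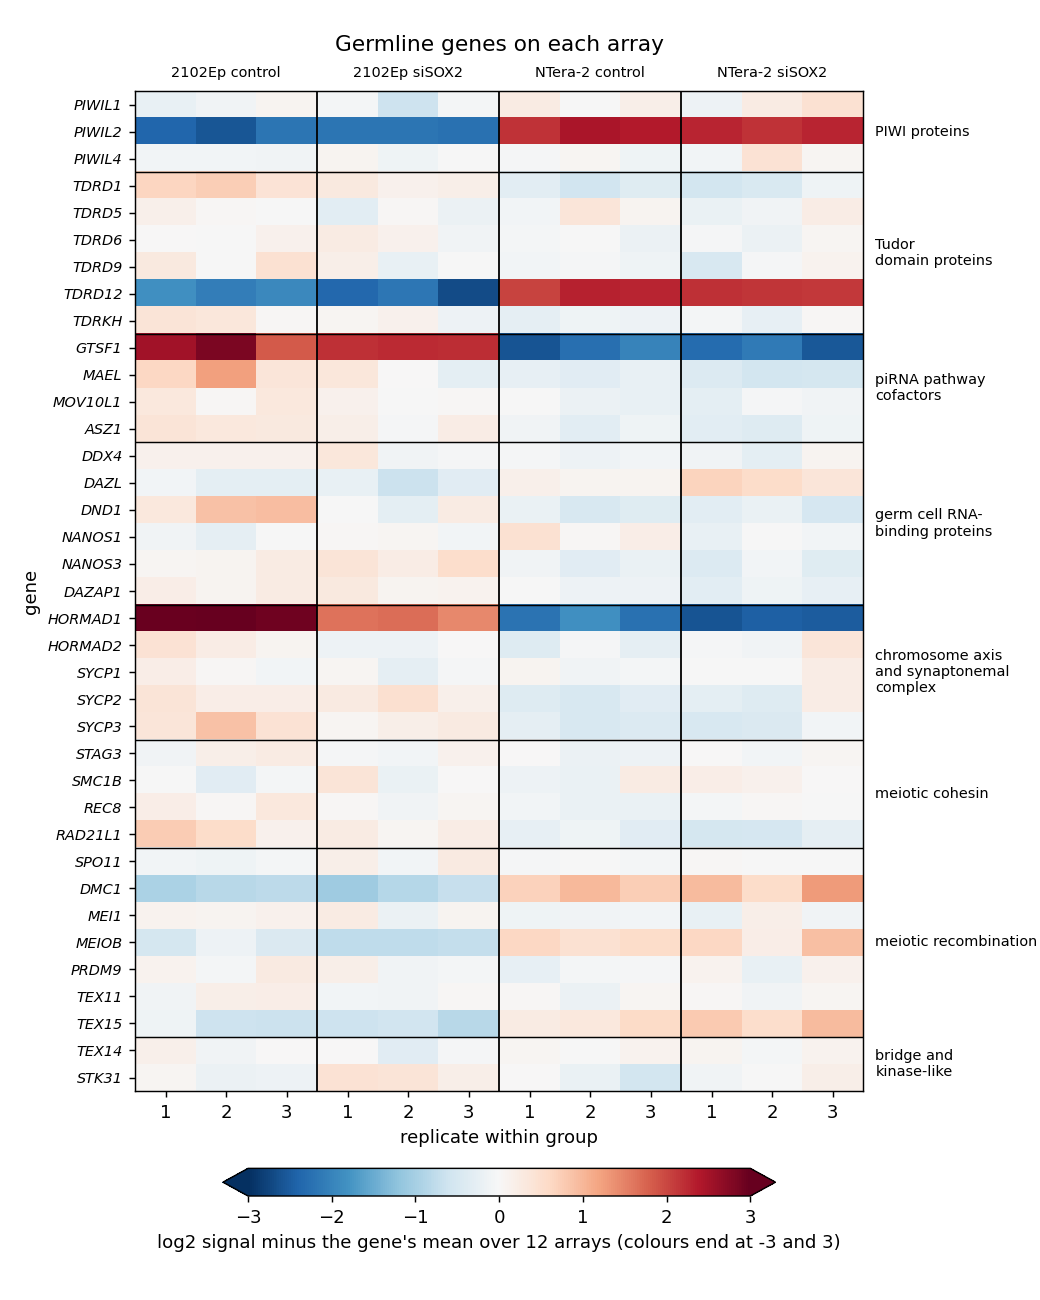
Signal of the 37 germline genes (rows, grouped by role) on the 12 arrays (columns, by group and replicate), coloured by the log2 signal minus that gene's mean over all arrays. PIWIL2 and TDRD12 are red in NTera-2, GTSF1 and HORMAD1 are red in 2102Ep, and most other rows are pale throughout.

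The comparison of the control cells of both lines asked which germline genes distinguished NTera-2 from 2102Ep. PIWIL2 and TDRD12, from the piRNA pathway, and DMC1, the meiotic recombinase, were higher in NTera-2, while HORMAD1, GTSF1, DND1, TDRD1 and MAEL were lower. A gene was called at limma's adjusted p of 0.05 or less, an unadjusted p of 0.01 or less and at least a 2-fold change. Of the 37 genes, 3 were called higher (8.11%, against 4.49% of all genes) and 5 lower (13.5%, against 3.28%). Without the fold, 7 passed the adjusted p upwards (18.9%, against 21.0% of all genes) and 15 downwards (40.5%, against 21.5%). The median log2 difference was -0.22, beside -0.06 over all genes. Bulk RNA does not tell fewer expressing cells from less RNA per cell.

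In the siSOX2 arrays, which share none with the controls, 5 germline genes were called higher in NTera-2 (against 4.61% of all genes) and 2 lower (against 3.03%). Without the fold, 7 were higher (against 23.1%) and 10 lower (against 18.5%), and the median was -0.11 beside -0.02 over all genes. PIWIL2, TDRD12, DMC1, GTSF1 and HORMAD1 were called in both siRNA arms with the same direction. The share of all genes called in both arms was not computed. TDRD1, MAEL and DND1 were called in the control arm alone and TEX15 and MEIOB in the siSOX2 arm alone, but none of these 5 passed the test of a difference in response to siSOX2 (limma's adjusted p from 0.0765 for DND1 to 0.397 for MAEL). The other 27 genes were called in neither arm.

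**Figure D2:**
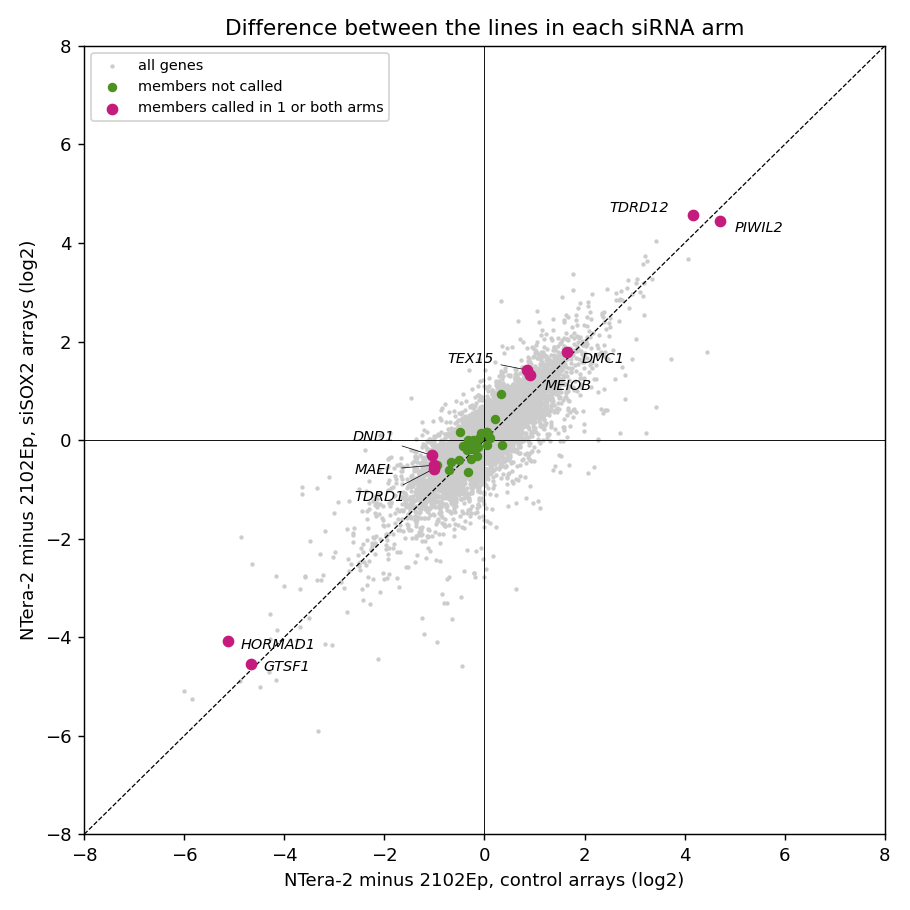
Log2 difference between NTera-2 and 2102Ep in control arrays (horizontal axis) and in siSOX2 arrays (vertical axis) for all 18404 genes (grey) and the germline genes (green, not called; magenta, called in 1 or both arms), with the line of equal values dashed. PIWIL2 (4.71 and 4.44) and TDRD12 (4.16 and 4.57) lie far to the upper right, and HORMAD1 (-5.12 and -4.08) and GTSF1 (-4.67 and -4.54) far to the lower left.

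Of the PIWI proteins, PIWIL2, which takes part in the cytoplasmic amplification of piRNAs, separated the lines. Its log2 signal was 5.39, 5.20 and 5.59 in 2102Ep control cells and 9.94, 10.23 and 10.14 in NTera-2 control cells. In siSOX2 cells it was 5.59, 5.58 and 5.54 in 2102Ep and 10.05, 9.94 and 10.05 in NTera-2. Every NTera-2 array was above every 2102Ep array. The difference was 4.71 ± 0.11 (log2, SE; 26.1-fold, adjusted p = 2.04e-14, limma) in control cells and 4.44 ± 0.11 (21.7-fold, adjusted p = 5.37e-14) after siSOX2. PIWIL1, whose signal lay between 5.20 and 6.28 over all arrays, was 0.42 higher in NTera-2 after siSOX2 (adjusted p = 0.0498, limma) and not called. PIWIL4, a nuclear PIWI protein, lay between 5.77 and 6.33 and passed in neither arm.

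Among the 6 Tudor domain proteins, TDRD12, a helicase-containing partner of PIWI proteins, was likewise higher in NTera-2. It read 6.56, 6.33 and 6.47 in 2102Ep control cells and 10.43, 10.71 and 10.69 in NTera-2 control cells. After siSOX2 the values were 6.05, 6.23 and 5.73 in 2102Ep and 10.61, 10.55 and 10.54 in NTera-2. The lines did not overlap, and the difference was 4.16 ± 0.13 (17.9-fold, adjusted p = 2.69e-13, limma) in control cells and 4.57 ± 0.13 (23.7-fold, adjusted p = 8.03e-14) after siSOX2. Its promoter is the one shown above with both motifs.

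TDRD1, a scaffold that binds methylated PIWI proteins, ran in the opposite direction and at low signal. It was 5.40, 5.49 and 5.15 in 2102Ep control cells and 4.44, 4.18 and 4.38 in NTera-2 control cells. All NTera-2 arrays were lower, by 1.01 on the log2 scale (-1.01 ± 0.13, SE; adjusted p = 5.15e-06, limma), which is close to the 2-fold threshold. The change was under 2-fold without 2102Ep control replicate 1 (-0.99) or 2 (-0.94) or NTera-2 control replicate 2 (-0.94). On the siSOX2 arrays it was 5.05, 4.87 and 4.93 in 2102Ep and 4.19, 4.30 and 4.61 in NTera-2. These did not overlap either, at a difference of -0.58 (adjusted p = 0.00121, limma). TDRKH, which tethers PIWI proteins to mitochondria, was 0.43 lower in NTera-2 control cells than in 2102Ep (-0.43, adjusted p = 0.00703, limma). After siSOX2 TDRKH did not pass (-0.11, adjusted p = 0.494, limma). TDRD5, TDRD6 and TDRD9 passed in neither arm.

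**Figure D3:**
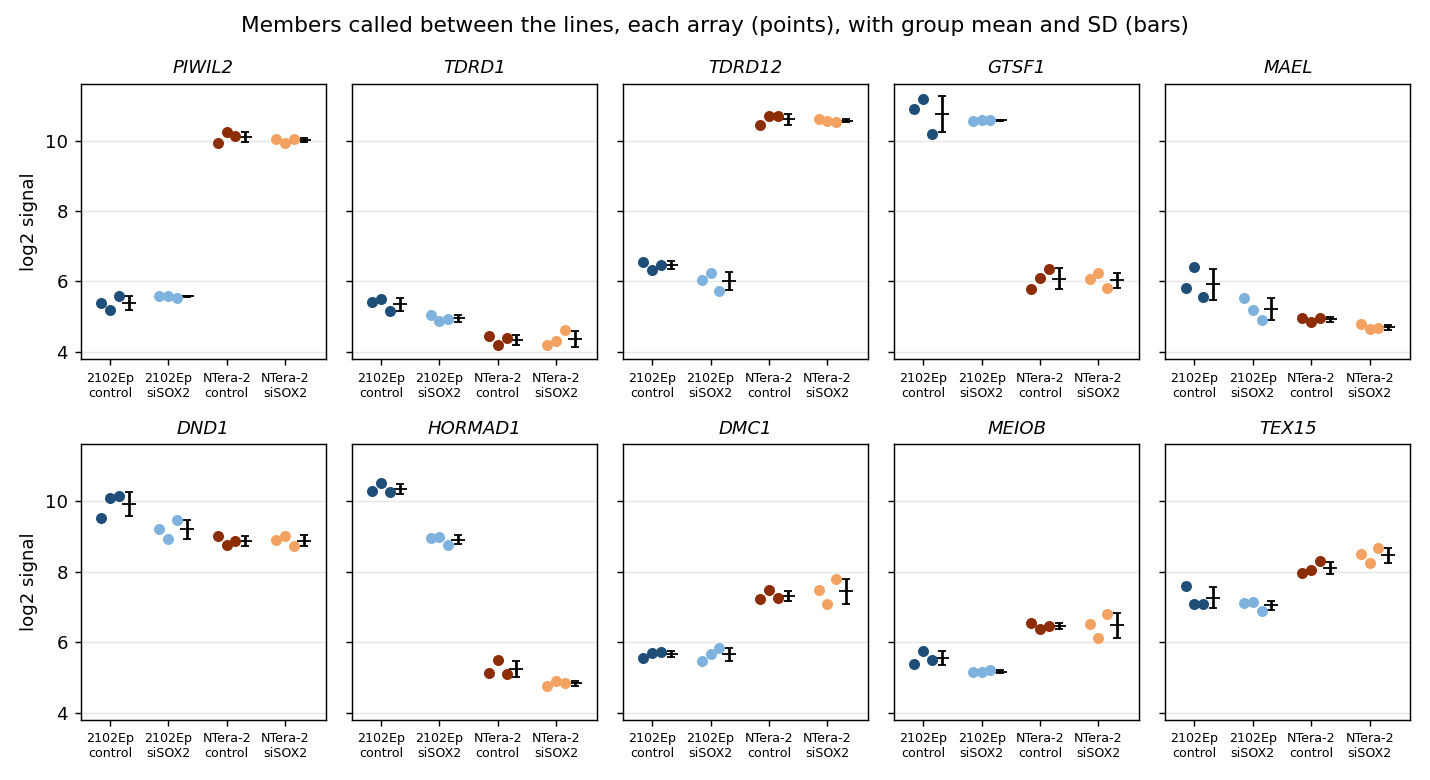
Log2 signal (vertical axis) on each of the 12 arrays (points, by group along the horizontal axis) for the 10 germline genes called between the lines in either siRNA arm, with the mean and SD of 3 arrays as black bars. PIWIL2 and TDRD12 lie near 10 in NTera-2 and below 7 in 2102Ep, GTSF1 is above 10 only in 2102Ep, and HORMAD1 drops from above 10 to about 9 in 2102Ep after siSOX2.

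All 4 cofactors of the piRNA pathway were lower in NTera-2 control cells at the adjusted p (against 21.5% of all genes). GTSF1, a small zinc finger protein that assists PIWI slicing, was 10.89, 11.18 and 10.19 in 2102Ep control cells and 5.78, 6.10 and 6.36 in NTera-2 control cells. After siSOX2 it was 10.56, 10.59 and 10.58 in 2102Ep and 6.06, 6.23 and 5.81 in NTera-2. No array of one line reached the other, although 2102Ep control replicate 3 was lower than its partners (SD 0.51, n = 3). The difference was -4.67 ± 0.20 (25.5-fold lower, adjusted p = 1.13e-11, limma) in control cells and -4.54 ± 0.20 (23.3-fold lower, adjusted p = 1.4e-11) after siSOX2.

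MAEL, which acts in piRNA-directed silencing, was much dimmer. It was 5.80, 6.41 and 5.55 in 2102Ep control cells and 4.95, 4.85 and 4.96 in NTera-2 control cells. The groups did not overlap, but the difference of -1.0 ± 0.18 (adjusted p = 0.000206, limma) was just at the threshold. It was -0.76 without 2102Ep control replicate 2 and -0.97 without NTera-2 control replicate 2. On the siSOX2 arrays MAEL was 5.52, 5.20 and 4.90 in 2102Ep and 4.78, 4.64 and 4.67 in NTera-2, again without overlap (-0.51, adjusted p = 0.0288, limma). In control cells ASZ1, a mitochondrial surface protein of the pathway, was lower by 0.51 (-0.51, adjusted p = 0.00104, limma). MOV10L1, the helicase that feeds piRNA precursors into processing, was lower by 0.35 (-0.35, adjusted p = 0.0173, limma). After siSOX2 ASZ1 passed again (-0.40, adjusted p = 0.00628, limma) and MOV10L1 did not (-0.20, adjusted p = 0.177).

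Of the 6 RNA-binding proteins of germ cells, DND1, a partner of NANOS proteins in germ cell survival, was called in control cells. It read 9.54, 10.09 and 10.14 in 2102Ep and 9.02, 8.75 and 8.86 in NTera-2, with no overlap. The difference was -1.045 ± 0.16 (2.06-fold lower in NTera-2, adjusted p = 4.48e-05, limma). It was under 2-fold without 2102Ep control replicate 2 (-0.96) or 3 (-0.93) or NTera-2 control replicate 2 (-0.98). After siSOX2 the lines overlapped, at 9.20, 8.94 and 9.47 in 2102Ep against 8.91, 9.02 and 8.73 in NTera-2 (-0.31, adjusted p = 0.129, limma).

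DAZL, which licenses germ cells for sexual differentiation, lay somewhat higher in NTera-2. Its log2 signal was 6.98, 6.77 and 6.78 in 2102Ep and 7.22, 7.14 and 7.15 in NTera-2 control cells. With siSOX2 the values were 6.84, 6.41 and 6.72 against 7.74, 7.61 and 7.42. The lines did not overlap in either arm, with a difference of 0.33 (adjusted p = 0.0386, limma) in control cells and 0.93 (1.91-fold, adjusted p = 8.82e-06) after siSOX2, short of 2-fold. Without 2102Ep siSOX2 replicate 1 (1.02) or NTera-2 siSOX2 replicate 3 (1.01) the latter was called. NANOS3, a primordial germ cell factor, was lower in NTera-2 by 0.34 in control cells (-0.34, adjusted p = 0.0286, limma) and 0.66 after siSOX2 (-0.66, adjusted p = 0.000215). NANOS1 was 0.36 higher in control cells (adjusted p = 0.0203, limma) but not after siSOX2 (-0.099, adjusted p = 0.536). DAZAP1, a widely expressed DAZ-associated protein, was lower in NTera-2 control cells (-0.27, adjusted p = 0.0425, limma) and after siSOX2 (-0.38, adjusted p = 0.00543). DDX4 passed in neither arm.

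HORMAD1, a chromosome axis protein and known cancer-testis antigen, showed the largest difference of the 37 genes in control cells. Its log2 signal was 10.29, 10.51 and 10.26 in 2102Ep and 5.12, 5.49 and 5.09 in NTera-2 control cells. After siSOX2 it was 8.96, 9.0 and 8.77 in 2102Ep and 4.75, 4.89 and 4.84 in NTera-2. The 4 groups did not overlap with one another. The line difference was -5.12 ± 0.12 (34.8-fold lower in NTera-2, adjusted p = 2.04e-14, limma) in control cells and -4.08 ± 0.12 (17.0-fold lower, adjusted p = 1.8e-13) after siSOX2.

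The other axis and synaptonemal complex genes were dim and moved less. SYCP3, a component of the lateral element, was 5.44, 5.94 and 5.50 in 2102Ep and 4.81, 4.59 and 4.65 in NTera-2 control cells, with no overlap. It was lower by 0.94 (-0.94 ± 0.14, adjusted p = 2.95e-05, limma), short of 2-fold. It was called without 2102Ep control replicate 1 (-1.03) or 3 (-1.01) or NTera-2 control replicate 1 (-1.01). SYCP2, its partner, was lower by 0.66 (-0.66, adjusted p = 0.000975, limma) and HORMAD2 by 0.49 (-0.49, adjusted p = 0.00791, limma). In the siSOX2 arm SYCP3 (-0.50) and SYCP2 (-0.44) passed the adjusted p again and HORMAD2 did not (0.16, adjusted p = 0.378, limma). SYCP1, the transverse filament, stayed between 3.40 and 3.88 on all arrays.

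Of the 4 meiotic cohesins, RAD21L1 was lower in NTera-2 in both arms (-0.71, adjusted p = 0.000472, and -0.61, adjusted p = 0.0018, limma). REC8, a kleisin subunit, was lower in control cells only at the adjusted p (-0.34, adjusted p = 0.0119, limma) with a difference of 0.00489 after siSOX2 (adjusted p = 0.975). STAG3 and SMC1B passed in neither arm. STAG3 and RAD21L1 also have a probe set shared with other genes, which was not used.

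The 7 recombination genes contained 3 that were higher in NTera-2 in both arms at the adjusted p. Of all genes, 21% were higher in the control arm and 23.1% in the siSOX2 arm. The share of all genes in both was not computed. DMC1, the recombinase, was 5.56, 5.69 and 5.73 in 2102Ep and 7.22, 7.48 and 7.25 in NTera-2 control cells. In the siSOX2 arm it read 5.46, 5.67 and 5.82 against 7.47, 7.07 and 7.79. Every NTera-2 array was above every 2102Ep array, by 1.66 ± 0.15 (3.15-fold, adjusted p = 1.5e-07, limma) in control cells and 1.79 ± 0.15 (3.46-fold, adjusted p = 5.77e-08) after siSOX2.

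MEIOB, a single-strand DNA binding protein needed for recombination, also lay higher in NTera-2. It was 5.38, 5.76 and 5.48 in 2102Ep and 6.54, 6.36 and 6.46 in NTera-2 control cells, a difference of 0.91 ± 0.15 (adjusted p = 7.04e-05, limma) that was called without 2102Ep control replicate 2 (1.02). After siSOX2 it was 5.14, 5.14 and 5.20 against 6.52, 6.11 and 6.80, a difference of 1.32 ± 0.15 (2.49-fold, adjusted p = 1.29e-06). The lines did not overlap in either arm.

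TEX15, a testis gene linked to recombination and transposon silencing, followed the same order. It was 7.60, 7.09 and 7.08 in 2102Ep and 7.97, 8.04 and 8.30 in NTera-2 control cells, a difference of 0.85 ± 0.15 (adjusted p = 0.00018, limma) that was called without 2102Ep control replicate 1 (1.02). After siSOX2 it was 7.10, 7.14 and 6.89 against 8.50, 8.24 and 8.66, a difference of 1.42 ± 0.15 (2.68-fold, adjusted p = 6.83e-07). Again no arrays overlapped. SPO11, which cuts DNA to start recombination, lay between 3.68 and 4.06 on all arrays. SPO11, MEI1, PRDM9, the methyltransferase that places recombination hotspots, and TEX11 passed in neither arm, nor did TEX14, a protein of intercellular bridges, or STK31.

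The knock-down comparison in 2102Ep asked which germline genes changed when SOX2 fell. HORMAD1 alone was called, from 10.35 ± 0.14 to 8.91 ± 0.12 (log2, SD, n = 3), and all 3 siSOX2 arrays were below all controls, as listed above. The change was -1.44 ± 0.12 (SE; 2.72-fold lower, adjusted p = 1.94e-07, limma), which left a ratio of 0.368. This made 1 gene lower (against 0.826% of all genes) and 0 higher (against 1.15%). At the adjusted p without the fold, 5 were lower (against 5.90%) and 0 higher (against 6.76%), while at an unadjusted p under 0.05 there were 9 lower (against 11.2%) and 2 higher (against 11.6%).

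The 4 further genes that passed in 2102Ep were DND1 (-0.72, adjusted p = 0.0046, limma), MAEL (-0.71, 0.0113), TDRD12 (-0.45, 0.0246) and TDRD1 (-0.40, 0.0494). For each of them the 3 siSOX2 arrays lay below the 3 controls, with the values given above. For MAEL the gap was narrow, between 5.52 after siSOX2 and 5.55 in control cells. STK31, a Tudor domain kinase-like protein, had the highest change (0.43, adjusted p = 0.0509, limma). Of the 37 genes 28 had a change below 0 and 9 above, with a median of -0.16 beside -0.01 over all genes. Apart from HORMAD1, MAEL and DND1, every 95% interval lay between -0.714 and 0.715, inside a 2-fold change in array signal. In 2102Ep control cells 26 of the 37 genes were in the lower quartile, where changes in RNA tend to be understated.

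Marker lists of the undifferentiated state and of some other cell types also shifted after siSOX2. The mean log2 signal of the 14 embryonal carcinoma markers, SOX2 included, was 11.19 to 11.38 on control arrays and 10.54 to 10.67 on siSOX2 arrays, and 3 of the 14 were called lower (SOX2, CRIPTO and UTF1). The mean of 13 seminoma and primordial germ cell markers, 3 of which are germline genes of the set (NANOS3, DDX4 and DAZL), was 8.448 to 8.550 on control arrays and 8.067 to 8.113 on siSOX2 arrays. The same lists were also lower after siSOX2 in NTera-2, at 10.61 to 10.75 against 10.86 to 11.07 and at 7.727 to 7.782 against 7.925 to 7.990. The mean of 10 trophoblast markers was 6.938 to 7.221 on 2102Ep control arrays and 7.480 to 7.593 on siSOX2 arrays, with GATA3 (2.15) and TFAP2A (2.44) called higher and ERVW-1 (-1.15) lower, while in NTera-2 it was 6.789 to 6.954 and 6.736 to 6.956. The mean of 10 fibroblast markers was 6.950 to 7.138 on 2102Ep control arrays and 7.245 to 7.297 on siSOX2 arrays. In NTera-2 that mean was 6.958 to 7.088 and 7.148 to 7.306. For 12 Sertoli and Leydig markers it was 7.266 to 7.345 and 7.380 to 7.501 in 2102Ep. In NTera-2 their mean was 7.049 to 7.242 and 7.237 to 7.401. For 10 yolk sac and endoderm markers the arms overlapped, at 7.369 to 7.491 and 7.436 to 7.616 in 2102Ep, where GATA6 was called higher. Their NTera-2 arms overlapped too, at 7.079 to 7.233 and 7.169 to 7.324. PRDM14 of the seminoma list was called lower and FSHR of the Sertoli and Leydig list higher in both lines. In NTera-2, CRIPTO and DPPA3 were also called lower. The part of these marker shifts in the fall of HORMAD1 was not tested.

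In NTera-2, where the SOX2 signal fell less, 0 germline genes were called by limma in either direction (against 0.31% of all genes higher and 0.348% lower). Without the fold the count was also 0 (against 2.96% higher and 1.98% lower). HORMAD1 was lower on all 3 siSOX2 arrays than on any control (-0.41 ± 0.12, adjusted p = 0.0663, limma). DAZL was higher on all 3 (0.42 ± 0.12, adjusted p = 0.0577, limma). At an unadjusted p under 0.05 there were 3 genes higher (against 10.0% of all genes) and 2 lower (against 4.71%), the others being NANOS1 (-0.33, adjusted p = 0.148), HORMAD2 (0.31, adjusted p = 0.295) and TEX15 (0.36, adjusted p = 0.231). The median change was 0.04, as over all genes, with 22 genes above 0 and 15 below. Every 95% interval lay between -0.663 and 0.678, so a 2-fold change in array signal lay outside all of them. In NTera-2 control cells 25 of the 37 genes were in the lower quartile, where changes in RNA tend to be understated.

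**Figure D4:**
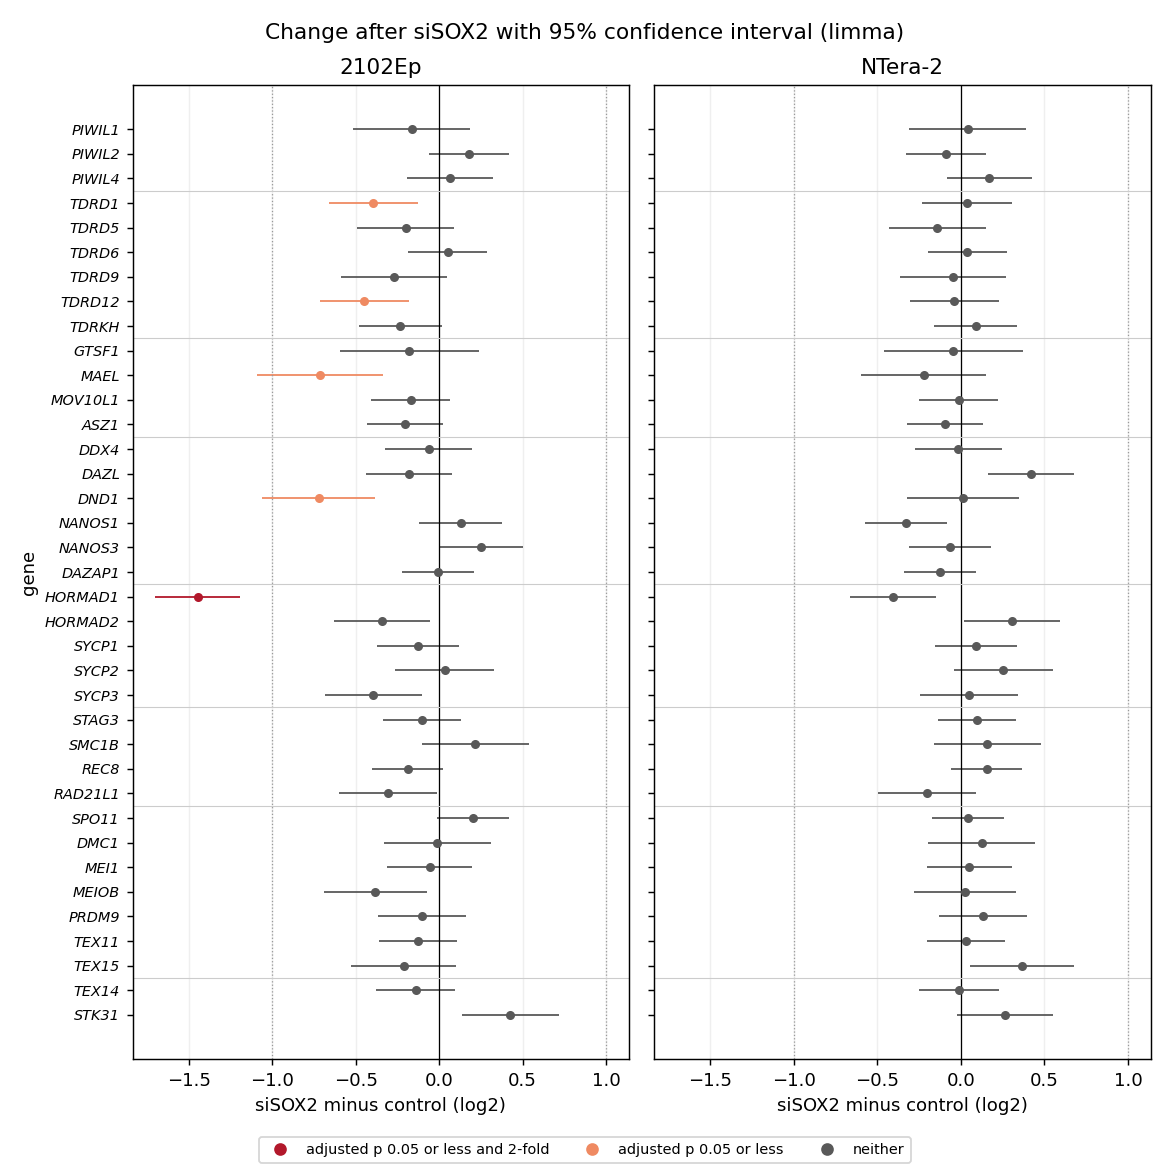
Change in log2 signal after siSOX2 (horizontal axis, siSOX2 minus control) with its 95% interval for the 37 germline genes (rows, grouped by role) in 2102Ep (left) and NTera-2 (right), and dotted lines at a 2-fold change. HORMAD1 in 2102Ep (-1.44) is the only point beyond the lines, and 28 genes in 2102Ep lie left of 0 against 15 in NTera-2.

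The difference between both responses was called for HORMAD1 alone, 1 gene lower (against 0.668% of all genes) and 0 higher (against 0.989%). Its response was more negative in 2102Ep by 1.04 on the log2 scale (-1.035 ± 0.17, SE; adjusted p = 0.00102, limma). This difference is close to the 2-fold threshold and was -0.96 without 2102Ep control replicate 2, -0.97 without 2102Ep siSOX2 replicate 3, -0.98 without NTera-2 control replicate 1 and -0.96 without NTera-2 control replicate 3, with adjusted p from 0.00258 to 0.00526. HORMAD1 was already at 5.23 in NTera-2 control cells, in the lower quartile of all genes. DAZL (-0.60, adjusted p = 0.0524, limma), HORMAD2 (-0.65, 0.0638) and DND1 (-0.73, 0.0765) did not pass the threshold.

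Other germline pathway genes, from lists also chosen with earlier results known, were counted beside the same shares of all genes. After siSOX2 in 2102Ep these were 11.6% higher and 11.2% lower at an unadjusted p under 0.05, and in NTera-2 10.0% and 4.71%. Of 14 other piRNA pathway genes, 0 were called by limma in either knock-down (1 lower in 2102Ep and 3 higher in NTera-2 at an unadjusted p under 0.05). HENMT1, the methyltransferase that protects piRNA ends, was higher in NTera-2 (2.11 in control cells, adjusted p = 2.92e-10, and 2.60 after siSOX2), as was DDX25, a testis RNA helicase (1.23, adjusted p = 1.44e-05, and 1.48).

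Of 33 other meiosis genes, 0 were called by limma in either knock-down, although at an unadjusted p under 0.05 there were 6 lower and 2 higher in 2102Ep and 1 each way in NTera-2. Higher in NTera-2 control cells were TOP6BL (1.40) and IHO1 (1.59), which work with SPO11 in forming DNA breaks, and lower were BRDT, a testis bromodomain protein (-2.75), CCNA1, the germline cyclin A (-1.66), and SYCP2L (-1.11). In the siSOX2 arm TOP6BL (1.62), IHO1 (1.68) and BRDT (-1.81) were called again, and HSPA2, a testis chaperone, was lower (-1.04). The median differences of the list were -0.09 and 0.10.

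Of 23 other germ cell factors, PRDM14, a regulator of primordial germ cells and pluripotency, fell in both knock-downs (-2.38 ± 0.14 in 2102Ep, adjusted p = 2.24e-09, and -1.50 ± 0.14 in NTera-2, adjusted p = 2.81e-06, limma). DDX43, a cancer-testis helicase, fell in 2102Ep (-1.11, adjusted p = 2.13e-06), and DPPA3, a maternal and germ cell factor, in NTera-2 (-1.57, adjusted p = 0.000319). In 2102Ep 7 of the 23 were lower and 2 higher at an unadjusted p under 0.05, and in NTera-2 there were 2 lower and 3 higher. DDX43 (-1.10, adjusted p = 0.000316) and TFAP2C (-1.06, adjusted p = 0.000613) had a more negative response in 2102Ep than in NTera-2. Between control cells, KIT was higher in NTera-2 (1.23), and PRDM1 (-1.28), TFAP2C (-1.10), DPPA3 (-3.04) and DDX43 (-1.91) were lower. In the siSOX2 arm KIT (2.16) and PRDM14 (1.12) were higher and PRDM1 (-1.40) and DPPA3 (-4.17) lower.

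Of 31 X-linked and other cancer-testis antigens, 0 were called in either knock-down by limma. At an unadjusted p under 0.05, 5 were lower in 2102Ep and 1 each way in NTera-2. HORMAD1 and DDX43, both called lower in 2102Ep, are counted above and not in this list. MAGEB2 was lower in NTera-2 in both arms (-2.31 and -1.40). Of 29 genes known for repressing germline genes, HELLS, a remodeller that aids DNA methylation, fell in 2102Ep (-1.02, adjusted p = 1.72e-05, limma) and 0 were called in NTera-2. At an unadjusted p under 0.05 the list had 4 higher and 4 lower in 2102Ep and 1 each way in NTera-2. DNMT3L, a cofactor of de novo DNA methylation, was lower in NTera-2 (-3.03 and -2.37), and TFDP1, a dimer partner of E2F proteins, was higher in control cells (1.10).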

How the data were processed

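Per the study's methods, the authors deposited log2 signals per probe set from robust multi-array averaging in the manufacturer's software of unstated version. Log base was inferred from the range of 1.57 to 14.98. The submitters' processing notes name limma. Array medians ran from 7.433 to 7.583, and arrays of 1 group correlated at 0.9825 to 0.9943. The number of arrays limits the precision.

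Of 32321 probe sets, 19158 had 1 gene in the platform annotation, 1388 several and 11775 none. For 18404 genes (18376 with a current RefSeq symbol of GRCh38.p14), the probe set with the highest mean was used; each germline gene had 1. All 12 arrays were fitted with a mean per group in limma 3.58.1 (R 4.3.3), with Benjamini-Hochberg adjustment over all genes in each of 5 contrasts. All adjusted p-values are limma's. An exact permutation test of 3 against 3 cannot go below 0.1. The fit was tested on simulated data. It was repeated with a replicate block, without genes below the median signal, on only the groups compared and with other scaling. Further repeats used no fold threshold, other variance moderation, averaged probe sets and each array left out. Genes called in any contrast are given on all arrays; the others are summarised, apart from DAZL and SYCP3, whose arrays were chosen after their values were seen, and up to 6 called genes of each further list are named. The germline genes and lists were chosen with earlier results of these data known. Plots used matplotlib 3.10.9 (Python 3.11.15).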

Additional observations from a re-analysis of the deposited data

Results flagged for a closer look

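HORMAD1 responded differently to siSOX2 in the 2 lines by the test of the difference itself. The response in 2102Ep minus that in NTera-2 was -1.035 on the log2 scale (adjusted p = 0.00102, limma). This is close to 2-fold, and the call was lost in 4 of the 12 fits without 1 array and with arrays centred on their medians. On the 3 siSOX2 arrays of 2102Ep the HORMAD1 signal fell by 1.44 on the log2 scale. The change in NTera-2 was -0.41 from a control signal of 5.23, in the lower quartile of all genes. The SOX2 RNA signal left differed as well, 11.4% in 2102Ep and 64.0% in NTera-2, and its part in the difference was not tested.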

How the results depend on the processing

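The number of germline genes called depended most on the fold threshold and on genes below the median signal. Without a fold threshold it was 5 in place of 1 (siSOX2 in 2102Ep), 22 in place of 8 (NTera-2 against 2102Ep, control arm) and 17 in place of 7 (siSOX2 arm). With only genes at or above the median signal over all 12 arrays it was 0, 3 and 2, and 0 for the difference in response. HORMAD1 (10.35 in 2102Ep control cells) and PIWIL2 (10.1 in NTera-2 control cells) fell below that median through the other line. They and other genes below it were not tested there. With each array centred on its median the difference in response of HORMAD1 was -0.9973 and the count 0. Leaving out 1 array at a time gave 0 to 1 for the difference in response and 5 to 9 for the control arm, and MAEL (-0.9898 centred, -0.9546 with quantile normalization applied again) and TDRD1 (-0.9749 with the latter) stayed near 2-fold. Counts over all genes were 364, 121, 305, 1429 and 1407 in the 5 contrasts (2102Ep, NTera-2, their difference, control arm, siSOX2 arm), became 2330, 909, 957, 7809 and 7651 without the fold and 212, 66, 166, 866 and 818 at or above the median signal. No value listed here changed direction. The calls of PIWIL2, TDRD12, GTSF1, DMC1 and HORMAD1 between the lines held under every alternative that tested them. With the replicate number as a replicate block the counts stayed at 1, 0, 1, 8 and 7. The deviations of same-numbered arrays correlated at -0.377 to 0.268, with 2 of 12 pairs best matched. With 3 arrays per group this cannot decide whether same-numbered arrays were handled together. The difference in response uses all 4 groups, so a fit of only the groups compared is the same fit.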
